A study of Mus musculus with 6 samples.

Results

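The genes described here are 40 genes of glucose uptake, glycolysis, lactate and pyruvate handling and glycogen turnover, out of 24346 gene symbols measured in mandibular condylar cartilage. They were taken by symbol, all 40 were found in every library, and all 40 passed the filter of at least 1 FPKM in at least 3 libraries. FPKM (fragments per length of transcript and per depth of library) are values per length, so that levels of different genes can be set side by side. Among them are 7 isoforms that skeletal muscle uses (Slc2a4, Pfkm, Aldoa, Pgam2, Eno3, Pygm and Fbp2), which were compared with their paralogs. Aldoa was compared with Aldoc, the form of brain, so that this pair does not set muscle against a general isoform. The control group was 3 libraries labelled fl/fl, the usual notation for mice with a floxed gene, and the mutant group was 3 libraries from mice in which Ihh, the gene for Indian hedgehog, was deleted in the neural crest cells of the face and skull. The sources used here do not give the driver of Cre, the floxed segment, whether controls carried Cre, or the age and sex of the animals. The labels do not say whether each library stands for another animal, and p-values then measure only spread among these 6 libraries, some of which may be technical.

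Glycolysis splits glucose into pyruvate in the cytosol and yields ATP without oxygen. Growth cartilage has few or no blood vessels, and its chondrocytes are known for relying on glycolysis and for releasing lactate, with the hypoxia factor HIF-1 as a main activator of the enzyme genes. Skeletal muscle runs the same reactions largely with its own isozymes and feeds them from stored glycogen. The balance of isozymes therefore differs between the 2 tissues at steps that have a separate muscle isozyme.

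Ihh itself measured 3.73, 2.51 and 3.74 FPKM in controls 1, 2 and 3, against 2.18, 2.33 and 2.66 in mutants 1, 2 and 3, and its target Gli1 7.10 to 9.53 and 0.168 to 0.807 FPKM. The Ihh values overlapped between the groups and all lay in the range of silent genes given next, so that they do not check the labels. Relative depth, read from the spacing of low values, was 0.993 to 1.331 times that of control 1 in the other libraries, and the absolute depth was not known. The 90th percentile of 1120 olfactory receptor genes, used as a measure of silent genes, was 6.49 to 8.69 FPKM. Xist was at 29.2 to 29.5 FPKM in controls 1 and 2 and at 0.577 to 0.984 FPKM in the other libraries, so that controls 1 and 2 differed from the mutants in sex and control 3 did not. The label of the tissue was checked on 12 measured cartilage markers. Their sum was 413 to 547 FPKM in controls and 217 to 261 FPKM in mutants, with Matn1 at 0 in mutant 3. Cartilage transcripts were thus measured in every library. Of the 12, 5 fell, where 0.465% of all genes did, and 9 were lower in all mutants, beside 9.4% of all genes tested. Comp was higher in all mutants, and Col11a2 and Matn3 overlapped between the groups. The 24 markers of skeletal muscle summed to 5312 to 13079 FPKM in controls and 21333 to 39077 FPKM in mutants. None of the 24 was at 0 in any library, and 11 of them rose, where 0.775% of all genes did. Higher in all mutants were 19 of the 24, beside 9.77% of all genes tested, and Actn3, Myh2, Myh4, Myh8 and Pvalb overlapped. Myh4 was below the 90th percentile of the silent genes in 4 libraries, Ryr1 and Cacna1s in the 3 controls and Ttn in 1 library. In these bulk samples, fewer cells of a type and less RNA per cell cannot be told apart.

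Of the 40 genes, 10 differed between mutant and control cartilage (limma, Benjamini-Hochberg adjusted p under 0.05, 18715 genes), where 1.24% of all genes tested did. Pgam1, Eno1 and the lactate exporter gene Slc16a3 fell, which is 3 of 40 where 0.465% of all genes fell. The genes that rose were Pfkm, Eno3, Fbp2, Pygm, Pdk2, Pdk4 and Pgm2, which is 7 of 40 where 0.775% of all genes rose. The groups did not overlap for 22 of the 40 genes, where 19.2% of all genes tested did not, with 9 lower and 13 higher in all mutants, against 9.4% and 9.77%. At an unadjusted p below 0.05 there were 21 of the 40, against 14.1% of all genes, of which 8 were lower and 13 higher, against 6.11% and 7.94%. Fold changes are given on the scale of log2(FPKM + 1), mutant minus control, with their standard errors after ±. The median log2 fold change of the 40 genes was 0.10, beside 8.48e-04 over all genes tested. It was 1.95 over the 7 muscle isoforms, all of which were higher in every mutant than in every control, and -0.25 over the other 33 genes.

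**Figure D1:**
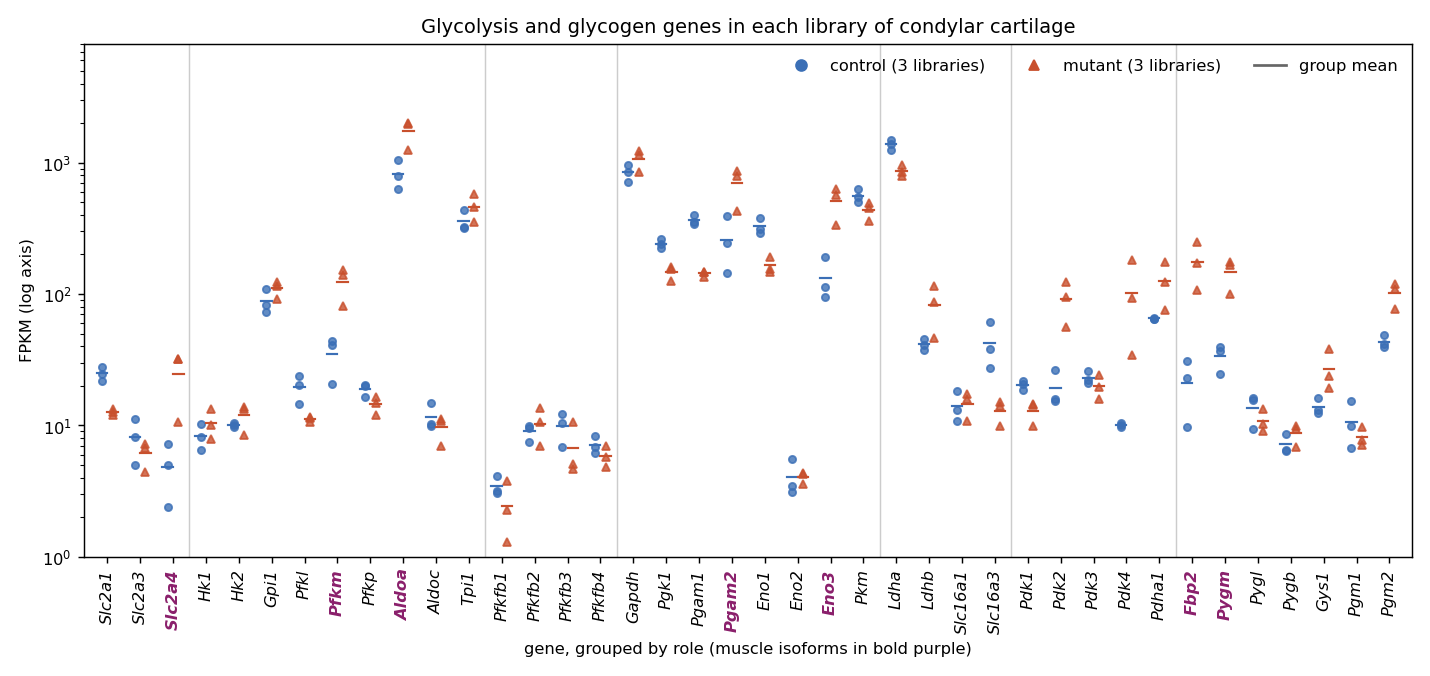
FPKM of the 40 genes on a log axis, grouped by role from glucose entry (left) to glycogen (right), with each library as a point (circles: controls 1 to 3; triangles: mutants 1 to 3) and each group mean as a line. The 7 muscle isoforms, in bold purple, lay higher in all mutants than in all controls, whereas Pgam1, Eno1 and Slc16a3 lay lower.

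**Figure D2:**
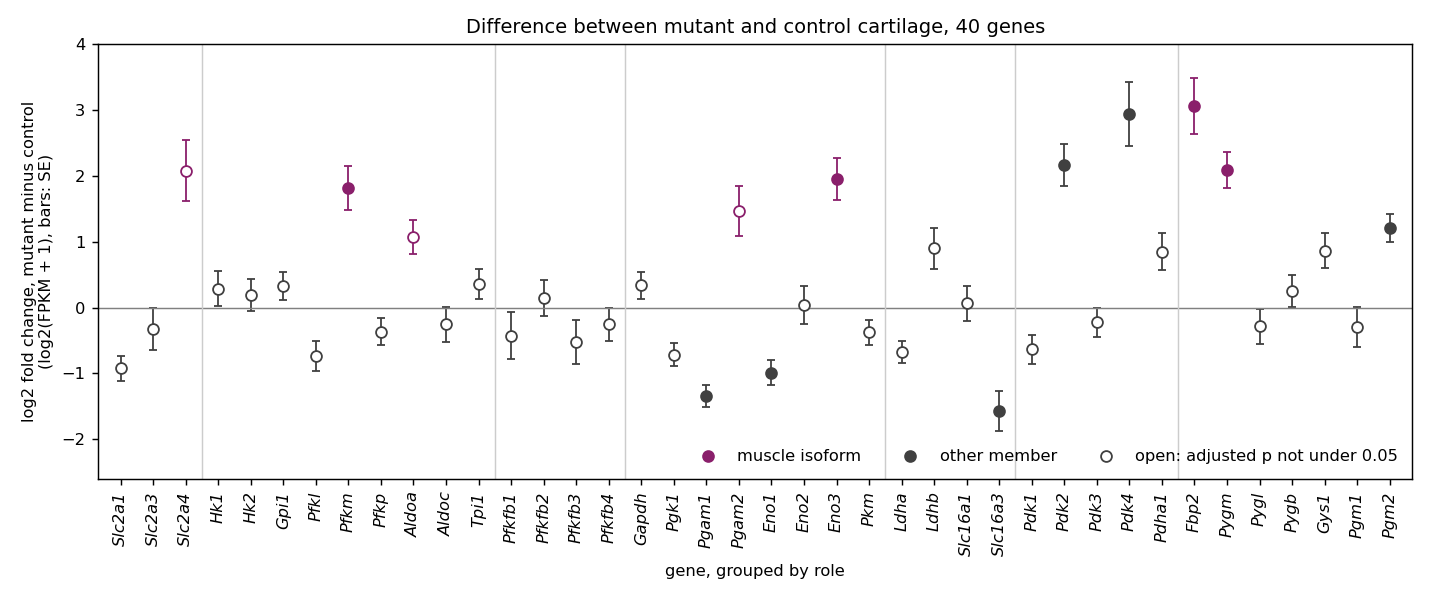
Log2 fold change (mutant minus control, on log2(FPKM + 1)) with its standard error for the same 40 genes, with filled points for an adjusted p below 0.05. Of the 10 filled points 4 are muscle isoforms (Pfkm, Eno3, Fbp2 and Pygm), and 3 are below 0 (Pgam1, Eno1 and Slc16a3).

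The calls depended on which libraries entered the test. None of the 10 remained without control 1, without control 2 or without mutant 1 (limma), where 19, 21 and 20 of the 40 genes had an unadjusted p below 0.05. Over all 18715 genes the calls went from 232 to 13, 20 and 19 in these fits, with 2260, 2148 and 2120 genes at an unadjusted p below 0.05. Without mutant 2 the call of Pgam1 alone remained. Without control 3 the calls of Pgam1, Eno3, Fbp2, Pdk2 and Pygm remained. Without mutant 3, the mutant with the lowest muscle markers, Pgam1 fell and 12 genes rose, the 7 named above and Slc2a4, Aldoa, Pgam2, Ldhb and Pdha1. With controls 1 and 2 left out, so that 1 control of the same sex as the mutants remained, none passed (17 at an unadjusted p below 0.05, beside 5 calls and 1657 such genes of 18715). In that fit the mutants alone give the spread, and the lone control is assumed to vary as they do. With the mean of the muscle markers as a covariate none passed either (6 at an unadjusted p below 0.05, beside 2 calls and 1238 such genes of 18715). All 10 genes kept their direction in both fits. The 3 genes that fell then had log2 fold changes of -2.40 to -1.44 with the muscle covariate, each larger than without it, while the 7 that rose had 0.08 to 1.10, each smaller than without it. The muscle mean separated the groups completely (5.90 to 6.92 and 7.69 to 8.61 log2 units), so that muscle content and genotype cannot be told apart in this design.

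**Figure D3:**
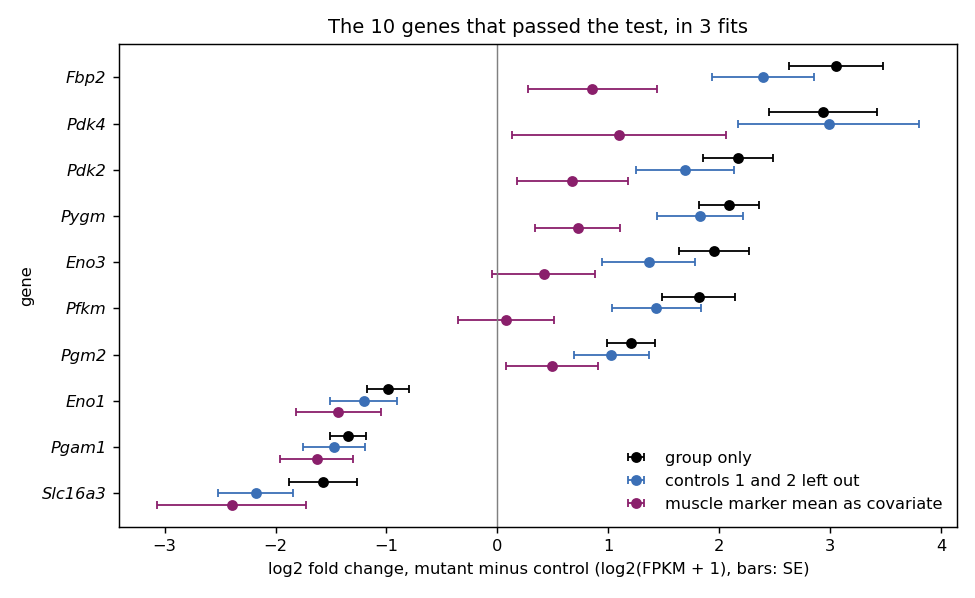
Log2 fold change with its standard error of the 10 genes that passed, in the fit on group alone (black), with controls 1 and 2 left out (blue) and with the mean of 24 muscle markers as a covariate (purple). Eno1, Pgam1 and Slc16a3 stayed below 0 in each of the 3 fits, and Pfkm was nearest to 0 with the covariate, at 0.08 ± 0.43.

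Glucose entry was measured by 3 transporter genes, none of which passed the test. Slc2a1 encodes the widely expressed basal transporter GLUT1. It measured 24.7, 21.9 and 28.1 FPKM in controls 1, 2 and 3, against 13.3, 12.01 and 12.6 in mutants 1, 2 and 3. The mutant mean was 0.506 times the control mean, without overlap, yet the log2 fold change of -0.92 ± 0.19 missed the threshold (adjusted p = 0.0609, 0.0358 to 0.738 over the settings tried). Slc2a4, which encodes the insulin-responsive transporter GLUT4 of muscle and fat, measured 7.18, 2.41 and 4.998 FPKM in controls against 31.99, 31.9 and 10.6 in mutants. Its groups did not overlap either, mutant 3 was lowest among the mutants, and the adjusted p of 0.0689 became 0.0152 without mutant 3 (0.0152 to 0.978 over the settings tried). The control values of Slc2a4 lay below the 90th percentile of the silent genes. Of 6 fat cell markers none passed the test (1 at an unadjusted p below 0.05, limma). Their sum was 80.9 to 322 FPKM in controls and 313 to 692 FPKM in mutants, with none at 0 in any library. Most of it was Fabp4, at 112, 61.5 and 291 FPKM in controls against 621, 669 and 293 in mutants. Plin1 was below the 90th percentile of the silent genes in every library, Lep, Cidec and Pparg in 5 and Adipoq in 4. Of the log2 fold changes, 4 were positive and 2 negative (Lep and Cidec). The part of fat cells in the Slc2a4 values was not tested. Slc2a3, for the high-affinity transporter GLUT3, measured 5.01 to 11.3 FPKM in controls and 4.46 to 7.21 FPKM in mutants, and the groups overlapped. It was below the 90th percentile of the silent genes in 5 libraries. As a share of Slc2a1 and Slc2a4 together, Slc2a4 made up 22.5, 9.91 and 15.1% in controls and 70.7, 72.7 and 45.8% in mutants.

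In upper glycolysis, from hexokinase to triosephosphate isomerase, Pfkm was the single gene of 9 that passed. Hk1 and Hk2, whose hexokinases trap glucose as glucose 6-phosphate, had overlapping groups and log2 fold changes of 0.29 ± 0.27 and 0.19 ± 0.24. Gpi1, for the isomerase that follows, measured 88.2 ± 18.3 FPKM in controls against 110.3 ± 17.05 in mutants (mean ± SD, n = 3 per group) with overlap. Phosphofructokinase, the committed step, is built from muscle (Pfkm), liver (Pfkl) and platelet (Pfkp) subunits. Pfkm measured 41.1, 20.7 and 43.9 FPKM in controls against 153, 139 and 81.7 in mutants. The lowest mutant stood well above the highest control, and Pfkm rose by 1.81 ± 0.33 (adjusted p = 0.0421, 0.0194 to 0.989 over the settings tried), a call lost without control 1, control 2, control 3, mutant 1 or mutant 2 (adjusted p from 0.0509 to 0.15). Exons of Pfkm overlap other genes on both strands, whose reads these libraries do not separate. Pfkl measured 23.99, 14.6 and 20.4 FPKM in controls against 11.5, 10.6 and 11.5 in mutants, which did not overlap, with an adjusted p of 0.178. Pfkp measured 20.2, 16.5 and 19.9 FPKM in controls against 14.9, 11.96 and 16.6 in mutants, with overlap and an adjusted p of 0.52. Of the 3 subunits together, Pfkm made up 48.2, 39.97 and 52.1% in controls and 85.3, 86.02 and 74.5% in mutants.

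Aldolase splits the doubly phosphorylated sugar, and Aldoa, although it is the muscle isoform, is also the main aldolase of most other tissues. Aldoa measured 795, 627 and 1054 FPKM in controls against 1992, 1959.8 and 1249 in mutants. All mutants lay above all controls, by a log2 fold change of 1.07 ± 0.26 that did not pass (adjusted p = 0.0887), and it passed without mutant 3 (0.0339, 0.0339 to 0.954 over the settings tried). Aldoc, the form of brain, stayed between 6.95 and 14.7 FPKM in all libraries, so that Aldoa held 98.7, 97.7 and 99.1% of the pair in controls and 99.4, 99.5 and 99.5% in mutants. Tpi1, for triosephosphate isomerase, which has no muscle isoform, measured 358 ± 65.4 FPKM in controls against 462 ± 112 in mutants, with overlap. The 4 Pfkfb genes, whose enzymes set the level of the phosphofructokinase activator fructose 2,6-bisphosphate, had overlapping groups throughout. Pfkfb1 and Pfkfb3 had log2 fold changes of -0.43 ± 0.35 and -0.52 ± 0.34, and Pfkfb2 and Pfkfb4 0.14 ± 0.27 and -0.25 ± 0.25. Pfkfb1 was below the 90th percentile of the silent genes in every library, Pfkfb4 in 5, and Pfkfb2 and Pfkfb3 in 2 each.

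In lower glycolysis, Pgam1 and Eno1 fell and Eno3 rose, 3 of 8 genes. Phosphoglycerate mutase moves the phosphate from carbon 3 to carbon 2 of glycerate, with Pgam1 as the general gene (chromosome 19 from 41911923 to 41918660, plus strand, mm10) and Pgam2 as the muscle gene (chromosome 11 from 5801640 to 5803733, minus strand). Enolase then forms phosphoenolpyruvate, with Eno1 as the general gene (chromosome 4 from 150236721 to 150248879, plus strand) and Eno3 as the muscle gene (chromosome 11 from 70657202 to 70662513, plus strand). The coding sequences of Pgam1 and Pgam2 were 74.8% identical and those of Eno1 and Eno3 76.7%, with no identical stretch longer than 28 and 20 bases. The 250 bases before the outermost RefSeq start (GRCm38.p6) of these 4 genes are shown because the members of each pair differed in opposite directions. The GENCODE start lies downstream of the end of the window in all 4 genes. Capitals mark ACGTG and GCGTG, the core of HIF-1 sites, CAGCTG, an E-box form bound by the myogenic factor MyoD, and the MEF2 consensus, each searched on both strands.
Pgam1 (chr19:41911621-41911870, plus strand): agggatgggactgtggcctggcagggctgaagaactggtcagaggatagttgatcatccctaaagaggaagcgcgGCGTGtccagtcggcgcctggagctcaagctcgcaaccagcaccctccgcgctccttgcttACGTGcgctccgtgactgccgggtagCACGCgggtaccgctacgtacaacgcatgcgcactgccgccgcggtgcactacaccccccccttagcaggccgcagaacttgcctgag
Pgam2 (chr11:5803797-5804046, minus strand): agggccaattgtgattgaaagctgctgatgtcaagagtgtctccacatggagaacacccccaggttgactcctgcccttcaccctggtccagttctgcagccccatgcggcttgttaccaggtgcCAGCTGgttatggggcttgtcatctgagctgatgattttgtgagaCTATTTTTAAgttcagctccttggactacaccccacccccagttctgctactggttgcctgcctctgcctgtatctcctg
Eno1 (chr4:150236458-150236707, plus strand): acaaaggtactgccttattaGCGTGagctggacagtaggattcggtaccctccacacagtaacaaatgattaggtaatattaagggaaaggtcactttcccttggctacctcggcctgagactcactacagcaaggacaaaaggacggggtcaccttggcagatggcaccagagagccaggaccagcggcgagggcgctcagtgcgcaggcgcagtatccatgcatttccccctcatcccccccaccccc
Eno3 (chr11:70656926-70657175, plus strand): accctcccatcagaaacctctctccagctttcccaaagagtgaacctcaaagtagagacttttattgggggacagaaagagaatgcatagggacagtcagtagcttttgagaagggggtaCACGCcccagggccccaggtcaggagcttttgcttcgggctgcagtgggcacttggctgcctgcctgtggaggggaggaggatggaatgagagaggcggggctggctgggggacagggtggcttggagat
The Pgam1 window held ACGTG from 114 to 110 bases before the start and GCGTG from 175 to 171 and, on the other strand, from 88 to 84 bases before it. The Pgam2 window held CAGCTG from 125 to 120 bases and the MEF2 consensus from 80 to 71 bases before the start. Eno1 had GCGTG from 230 to 226 bases and Eno3 on the other strand from 130 to 126 bases before the start. Among all 32851 promoter windows of this length, 16.6% held ACGTG, 28.2% GCGTG, 13% CAGCTG and 2.9% the MEF2 consensus. Of the 38 members with a window, 29 held ACGTG or GCGTG, beside 38.6% of all windows. They were 8 of the 9 members lower in all mutants, 9 of 12 higher in all mutants and 12 of 17 with overlapping groups. CAGCTG was present in 7 of the 38 windows and the MEF2 consensus in that of Pgam2 alone. These are matches of letters, not sites. The background of all windows was not matched to the members for base composition, and ACGTG and GCGTG both contain CG. Whether the higher share among the members is tied to HIF-1 was not tested.

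Pgam1 measured 356, 342 and 399 FPKM in controls against 147, 148 and 136 in mutants. Within each group the libraries were close together, and Pgam1 fell by 1.34 on the log2 scale (SE 0.16, adjusted p = 0.0153, 0.0052 to 0.703 over the settings tried), with a call lost without control 1, control 2 or mutant 1 (adjusted p from 0.0557 to 0.0709). Pgam2 measured 243, 144 and 390.1 FPKM in controls against 793, 867 and 429 in mutants. Its groups stood apart by the gap between control 3 and mutant 3 alone, and the log2 fold change of 1.47 ± 0.38 did not pass (adjusted p = 0.108) except without mutant 3 (0.0471, 0.0471 to 0.816 over the settings tried). With the muscle covariate the value for Pgam2 was -0.67 ± 0.37 and that for Pgam1 -1.63 ± 0.33. The sum of both genes was 599.6, 486 and 789 FPKM in controls against 939.6, 1015 and 565 in mutants. These sums overlapped (exact two-sided permutation p = 0.3), while the share of Pgam2 was 40.6, 29.7 and 49.5% in controls and 84.4, 85.5 and 75.98% in mutants.

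Eno1 measured 291, 314 and 379 FPKM in controls against 156, 191 and 148 in mutants, and fell by 0.99 on the log2 scale (SE 0.19, adjusted p = 0.0466, 0.0112 to 0.717 over the settings tried). No overlap was seen, but the call of Eno1 was lost without control 1, control 2, control 3, mutant 1, mutant 2 or mutant 3 (adjusted p from 0.0683 to 0.153). The values of Eno1 are uncertain in one respect, since the listed gene Eno1b is 99.4% identical to it in coding sequence, with an identical stretch of 725 bases, and fragments can be divided between them. Eno1b measured 108, 139 and 149 FPKM in controls against 54.8, 6.23 and 27.7 in mutants, without overlap (adjusted p = 0.123), and the sum of both, chosen after the values were seen, had a log2 fold change of -1.23 (adjusted p = 0.0226). Eno3 measured 113, 94.4 and 191 FPKM in controls against 631, 569.7 and 335 in mutants. Every mutant lay far above the highest control, control 3, and Eno3 rose by 1.95 ± 0.32 (adjusted p = 0.0296, 0.00886 to 0.916 over the settings tried), a call lost without control 1, control 2, mutant 1 or mutant 2 (adjusted p from 0.0976 to 0.118). Eno3 held 27.9, 23.1 and 33.5% of the sum of Eno1 and Eno3 in controls and 80.1, 74.9 and 69.4% in mutants, while that sum overlapped between groups (exact two-sided permutation p = 0.2). Eno2, the neuronal form, was at 3.12 to 5.52 FPKM in every library, in the range of silent genes.

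The other genes of lower glycolysis did not pass. Gapdh, for the dehydrogenase that makes NADH, measured 843 ± 126 FPKM in controls against 1072 ± 201 in mutants, and mutant 3 lay among the controls. Pgk1, for the first ATP-yielding kinase, measured 239, 224 and 260.2 FPKM in controls against 154, 160.1 and 126 in mutants. The groups did not overlap, with a log2 fold change of -0.72 ± 0.18 (adjusted p = 0.0926). Pkm, for the pyruvate kinase of both tissues through alternative exons that gene values do not separate, measured 502, 549.8 and 631 FPKM in controls against 454, 490.4 and 359 in mutants, again without overlap, with an adjusted p of 0.439. Gapdh thus had a higher mean in mutants, and Pgk1 and Pkm a lower one. Such abundant genes have processed pseudogenes, and how the authors' counting treated shared fragments is not known here.

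Of 4 genes of lactate handling, Slc16a3 fell and the other 3 did not pass. Slc16a3, which encodes the exporter MCT4 of strongly glycolytic cells, measured 27.2, 38.2 and 61.4 FPKM in controls against 15.04, 14.01 and 9.87 in mutants. Control 3 was the highest and the mutants lay close together, and Slc16a3 fell by 1.57 on the log2 scale (SE 0.30, adjusted p = 0.0491, 0.0238 to 0.717 over the settings tried), a call lost without control 1, control 2, control 3, mutant 1, mutant 2 or mutant 3 (adjusted p from 0.0784 to 0.135). Slc16a3 is also a gene of fast muscle, and with the muscle covariate its value was -2.40 ± 0.67. Slc16a1, for the exchanger MCT1, had overlapping groups (0.06 ± 0.27), and Slc16a3 was 67.7, 67.5 and 85.1% of both transporters in controls and 46.2, 47.04 and 47.8% in mutants. Ldha, for the lactate dehydrogenase subunit that favours lactate, was the most abundant of the 40 genes in controls, at 1246, 1386 and 1495 FPKM, and measured 957, 792 and 844 in mutants. Its groups did not overlap, with a log2 fold change of -0.67 ± 0.17 and an adjusted p of 0.103. Ldhb, for the subunit of oxidative tissue, measured 41.3, 37.5 and 45.3 FPKM in controls against 86.5, 116 and 46.6 in mutants, of which mutant 3 stood just above the controls (adjusted p = 0.214, and 0.0292 without mutant 3, in a range from 0.0292 to 0.925). Ldhb was 2.63% to 3.21% of both subunits in controls and 5.23% to 12.8% in mutants.

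At the gate from pyruvate into mitochondria, Pdk2 and Pdk4 rose, 2 of 5 genes. Pyruvate dehydrogenase kinases switch the dehydrogenase off, and Pdk4 and Pdk2 are the forms prominent in muscle, with Pdk4 induced there by fasting and fat use. Pdk4 measured 10.1, 10.4 and 9.66 FPKM in controls against 92.8, 181 and 34.4 in mutants. The controls agreed within 1 FPKM and the mutants spread widely around their mean of 103 ± 73.8 FPKM. Pdk4 rose by 2.94 ± 0.49 (adjusted p = 0.0319, 0.0032 to 0.881 over the settings tried), a call lost without control 1, control 2, control 3, mutant 1 or mutant 2 (adjusted p from 0.0576 to 0.122). Pdk2 measured 15.9, 15.3 and 26.2 FPKM in controls against 94.95, 123 and 56.2 in mutants, and rose by 2.17 ± 0.32 (adjusted p = 0.023, 0.00828 to 0.868), a call lost without control 1, control 2, mutant 1 or mutant 2 (adjusted p from 0.0634 to 0.0975). In both genes mutant 2 was highest and mutant 3 lowest among the mutants. Pdk1 measured 21.7, 18.6 and 20.8 FPKM in controls against 14.3, 9.89 and 14.5 in mutants. It was lower in all mutants than in all controls, with an adjusted p of 0.217. Pdk3 overlapped (-0.22 ± 0.22). Pdk1 and Pdk3 together were thus the larger part of the kinase transcripts in controls (Pdk1 28.1% and Pdk3 31.97% on average) and the smaller part in mutants (6.97% and 10.4%), where Pdk2 and Pdk4 held 41.5% and 41.2%. Pdha1, for the dehydrogenase subunit that these kinases act on, measured 65.9, 64.7 and 64.9 FPKM in controls against 123, 175 and 75.99 in mutants, without overlap (adjusted p = 0.2, and 0.0363 without mutant 3, in a range from 0.0363 to 0.983).

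Of 7 genes of glycogen turnover and the return path to glucose, Fbp2, Pygm and Pgm2 rose. Fbp2, for the fructose bisphosphatase of muscle, measured 23.1, 9.67 and 30.8 FPKM in controls against 249, 172 and 107 in mutants, and rose by 3.05 ± 0.42 (adjusted p = 0.0197, 0.00945 to 0.845 over the settings tried), with a call lost without control 1, control 2, mutant 1 or mutant 2 (adjusted p from 0.0524 to 0.0816). The lowest mutant lay far above the highest control, and the mutant mean was 8.31 times the control mean. Fbp1, its liver counterpart, stayed between 0 and 3.12 FPKM, in the range of silent genes, so that a share of Fbp2 in the pair says little. Pygm, for the glycogen phosphorylase of muscle, measured 36.9, 24.4 and 39.9 FPKM in controls against 167, 177 and 101 in mutants, and rose by 2.09 ± 0.27 (adjusted p = 0.0161, 0.00627 to 0.805), a call lost without control 1, control 2, mutant 1 or mutant 2 (adjusted p from 0.0537 to 0.0734). Pygl and Pygb, the liver and brain forms, had overlapping groups (-0.29 ± 0.27 and 0.25 ± 0.25), and Pygm was 70.00, 52.7 and 61.6% of the 3 phosphorylases in controls and 87.8, 90.02 and 86.3% in mutants. Gys1, for the glycogen synthase of muscle and most tissues, measured 16.2, 13.1 and 12.3 FPKM in controls against 23.9, 37.9 and 19.2 in mutants, without overlap (adjusted p = 0.175). The gene listed as Pgm2, a phosphoglucomutase, measured 41.6, 39.2 and 48.7 FPKM in controls against 120.0, 109 and 77.3 in mutants, and rose by 1.21 ± 0.21 (adjusted p = 0.0374, 0.0151 to 0.879), a call lost without control 1, control 2, control 3, mutant 1 or mutant 2 (adjusted p from 0.0514 to 0.141). The gene listed as Pgm1 overlapped (-0.29 ± 0.30). RefSeq lists each of these symbols as a synonym of the other, and the annotation behind the values is not given, so which of both loci rose is uncertain.

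**Figure D4:**
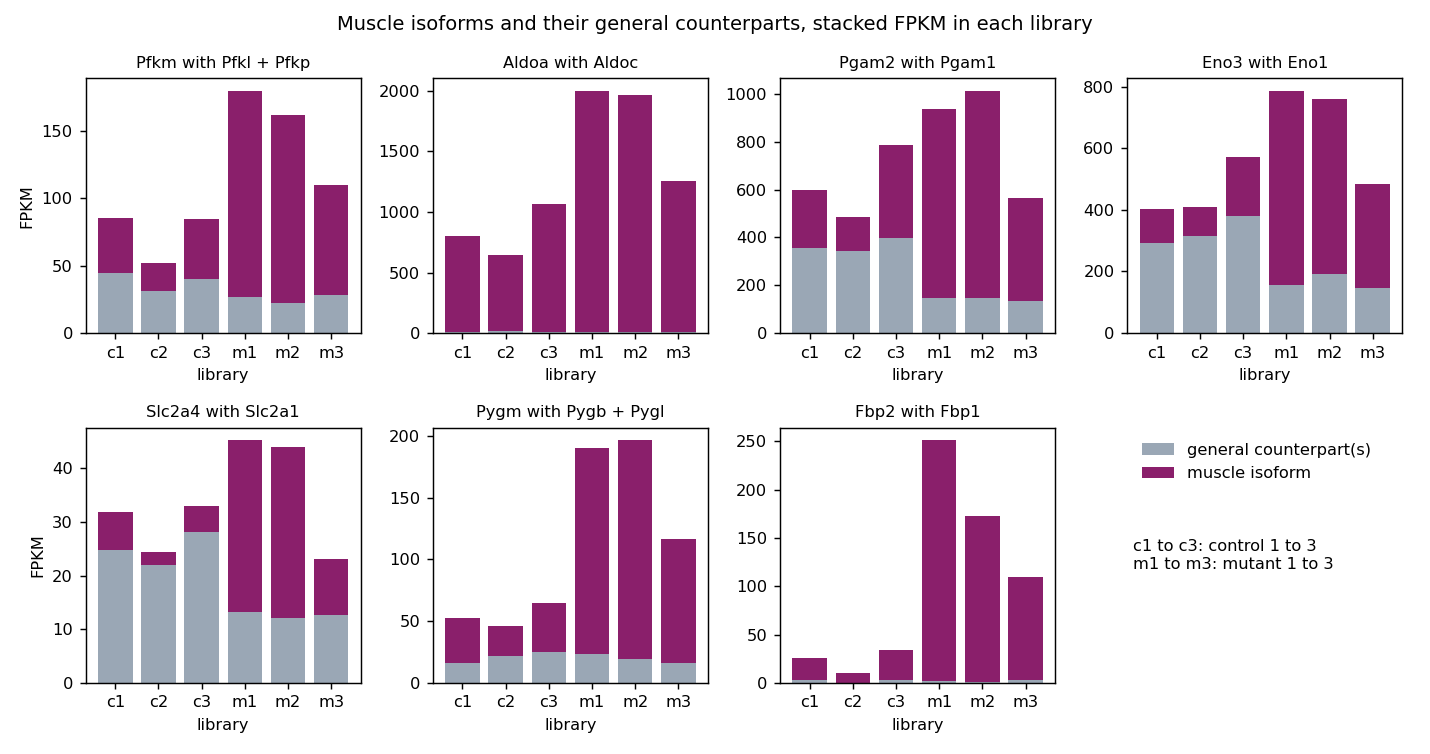
Stacked FPKM of each muscle isoform (purple) and its paralogs (grey) in the 6 libraries (c1 to c3: controls, m1 to m3: mutants). There is 1 panel per step, each bar starting at 0 with its own scale. In the panels of Pgam2 and Eno3 the grey part is smaller and the purple part larger in all mutants than in all controls, while the totals overlap.

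The 7 pairs were compared within each library as log2 of the muscle isoform over its counterparts, with 1 FPKM added to both, so that a factor common to a library largely cancels. In all 7 pairs the mutants lay above the controls. The log2 ratio of Pgam2 to Pgam1 was -0.61 ± 0.60 in controls and 2.21 ± 0.48 in mutants (mean ± SD, n = 3), and that of Eno3 to Eno1 was -1.36 ± 0.37 in controls and 1.58 ± 0.42 in mutants. For Slc2a4 over Slc2a1 it was -2.23 ± 0.55 in controls and 0.77 ± 0.87 in mutants, and for Pfkm over Pfkl and Pfkp -0.18 ± 0.35 in controls and 2.19 ± 0.59 in mutants. Pygm over Pygb and Pygl gave 0.66 ± 0.51 in controls and 2.83 ± 0.27 in mutants, and Aldoa over Aldoc 6.01 ± 0.65 in controls and 7.34 ± 0.04 in mutants. With Fbp1 in the range of silent genes, the ratio of Fbp2 to Fbp1 adds nothing to the values of Fbp2 itself, and it counts here only in the adjustment over 7 pairs. Between groups the differences of the other 6 pairs ran from 1.32 (Aldoa) to 2.94 (Eno3) and 3 log2 units (Slc2a4). Each gave an exact two-sided permutation p of 0.1, which is the smallest that 3 against 3 libraries allow, and 0.1 after Benjamini-Hochberg adjustment over the 7 pairs.

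Each muscle isoform was also set against the muscle markers of its own library, most of them sarcomere genes with some of calcium handling and metabolism, as log2(FPKM + 1) minus the mean of the 24 muscle markers. On this scale Pfkm, Pgam2, Eno3 and Slc2a4 overlapped between the groups. Eno3 was 0.51 ± 0.27 in controls and 0.74 ± 0.22 in mutants (exact permutation p = 0.4), and Pfkm -1.38 ± 0.12 and -1.29 ± 0.22 (exact permutation p = 0.7). Pgam2 and Slc2a4 differed by -0.25 and 0.35 (exact permutation p = 0.3 and 0.4). Without overlap, Fbp2 was higher in mutants by 1.33, Pygm higher by 0.36 and Aldoa lower, at 2.52 ± 0.17 against 3.17 ± 0.20 (exact permutation p = 0.1 for each, 0.233 adjusted over the 7 isoforms). With the median of the markers in place of their mean, the sign turned for Pfkm (-0.31), Eno3 (-0.17), Slc2a4 (-0.04) and Pygm (-0.03), and that of Fbp2 did not (0.93). Control 2 was the lowest control in 7 of 7 muscle isoforms and in 23 of 24 muscle markers, and mutant 3 the lowest mutant in 7 of 7 and 22 of 24. At the high end the mutants differed, with mutant 1 highest in 5 of 7 muscle isoforms and in 4 of 24 markers, and mutant 2 in 2 of 7 and 19 of 24. Mutant 3 was also the lowest mutant for Pgam1, Eno1 and Slc16a3.

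**Figure D5:**
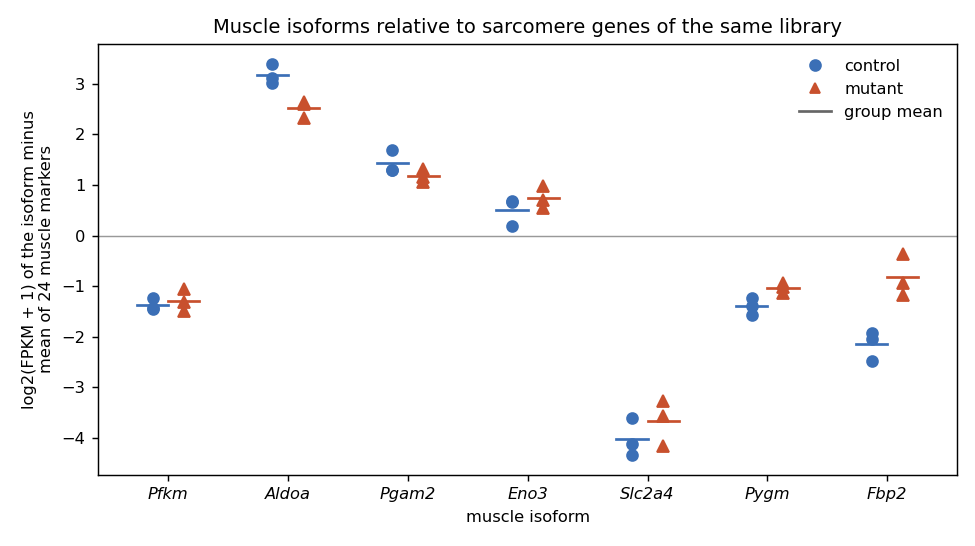
Log2(FPKM + 1) of each muscle isoform minus the mean of 24 muscle markers in the same library (circles: controls; triangles: mutants; lines: group means). Pfkm, Pgam2, Eno3 and Slc2a4 overlap between the groups, whereas the 3 mutant values of Fbp2 all lie above its control values.

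The order of levels changed with the isoforms. In controls the most abundant of the 40 genes were Ldha, Gapdh, Aldoa, Pkm and Pgam1, with means of 1376, 843, 826, 561 and 366 FPKM, of which Gapdh and Aldoa, and Aldoa and Pkm, overlapped. In mutants they were Aldoa, Gapdh, Ldha, Pgam2 and Eno3, with 1734, 1072, 864, 696 and 512 FPKM, where Aldoa lay above Gapdh in all libraries and the later neighbours in that order overlapped. Pgam1 moved from the fifth place to the twelfth (5 and 12 of 40), and Fbp2 from place 20 to place 8. The sum of all 40 genes was 5932 ± 875 FPKM in controls and 7538 ± 1592 FPKM in mutants and overlapped (exact two-sided permutation p = 0.2).

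Of 60 further genes of these and adjoining pathways, 58 were tested, 2 rose and none fell (12 and 2 at an unadjusted p below 0.05, limma). Of all genes tested, 0.775% rose and 0.465% fell (7.94% and 6.11% at an unadjusted p below 0.05). Gyg, for glycogenin, the primer of glycogen, measured 19.3, 12.96 and 17.6 FPKM in controls against 57.6, 94.2 and 55.4 in mutants, and rose by 1.97 ± 0.26 (adjusted p = 0.0161, 0.00771 to 0.775 over the 16 settings tried, of which 9 kept the call). Gpd1, for the cytosolic glycerol phosphate dehydrogenase, measured 2.97, 2.17 and 7.91 FPKM in controls against 20.3, 27.6 and 15.6 in mutants, and rose by 2.17 ± 0.39 (adjusted p = 0.0413, 0.0208 to 0.951, with 5 of 16 settings keeping the call). Its values in controls 1 and 2 lay below the 90th percentile of the silent genes. A list of 20 hypoxia genes outside glycolysis, 19 HIF targets and Hif1a itself, gave 4 that fell and none that rose (9 and 1 at an unadjusted p below 0.05, limma), namely Car9 (55.03 ± 9.77 to 9.51 ± 3.67 FPKM), P4ha1, P4ha2 and the secreted Stc2. Car9 and P4ha2 each kept the call in 10 of 16 settings, P4ha1 in 8 of 16 and Stc2 in 1 of 15, and the highest adjusted p of the 4 genes ran from 0.703 to 0.775. Stc2 was at 3.95, 2.21 and 3.96 FPKM in controls against 0, 0.365 and 0 in mutants, all below the 90th percentile of the silent genes. Of the 20 genes, 9 were lower and 1 was higher in all mutants, beside 9.4% and 9.77% of all genes tested, and 10 overlapped. The 1 higher gene was Adm, at 3.56, 1.19 and 0 FPKM in controls against 8.32, 5.925 and 7.88 in mutants (adjusted p = 0.112, limma). Adm was below the 90th percentile of the silent genes in every library. The median log2 fold change of the 20 genes was -0.47, beside 8.48e-04 over all genes tested, and Hif1a overlapped between the groups (-0.40 ± 0.26).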

How the data were processed

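RNA from 3 control and 3 mutant samples of condylar cartilage was made into full-length cDNA (SMART-Seq HT) and Nextera libraries, per the labels' protocols, which do not keep strand. Exons of 13 of the 40 genes overlap a gene on the opposite strand in GENCODE M21, among them Aldoa, Gapdh, Pfkm, Slc2a1, Tpi1 and Pdha1, and reads of both strands cannot be told apart. The authors deposited 1 table of FPKM per library. The headers name no unit, and FPKM was inferred from the values and from Cufflinks 2.2.1, which stands with TopHat2 2.0.13, Bowtie2 2.2.3, SAMtools 0.1.19 and the build mm10 in the submitters' processing notes. No source used here names the annotation.

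The 18715 genes that reached 1 FPKM in 3 or more libraries entered limma 3.58.1 (R 4.3.3) as log2(FPKM + 1), with group as its term and variances moderated by a robust trend, and p-values were adjusted by Benjamini-Hochberg over all of them. Folds on this scale understate changes of low genes. Alternatives changed the normalization, filter, pseudocount, moderation, covariates or the libraries included, with the gene set kept where libraries were left out. The procedure was tested on simulated data. Isoform ratios were tested by exact permutation. The text names all 40 genes, Fbp1 and, of the further pathway genes and HIF targets, those that passed and Adm. Eno1b and Hif1a were added after their values were seen. The members and lists were chosen with earlier results of these data known. Coding sequences came from GENCODE M21, longest per gene, aligned with Biopython 1.88, and promoter windows from RefSeq. Protein sequences were not used here.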

Additional observations from a re-analysis of the deposited data

How the results depend on the processing

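The 7 isoform log2 ratios kept their direction with a pseudocount of 0.1. Their groups did not overlap, so that leaving out libraries could not turn a sign. The replicate block leaves the mean difference unchanged, so that it could not turn one either. The count of the 40 genes called lower, 3, became 6 after quantile normalization and 1 with median scaling, without a filter, with a pseudocount of 0.1 or with moderation that was not robust. It became 0 with the replicate block, with the muscle or Xist covariate, or with controls 1 and 2 left out, and 0 to 1 when single libraries were left out. The count called higher, 7, became 4 without a filter and 0 with the replicate block, with either covariate or with controls 1 and 2 left out, and ranged from 0 to 12 when single libraries were left out. With the replicate block 21 of the 40 genes had an unadjusted p below 0.05 (limma), beside 2378 of all 18715 genes, of which 2 were called. Libraries that share a number did not deviate together (correlations -0.0162 to 0.00628), which gave no sign that numbers pair the libraries. With the muscle covariate the log2 fold change turned sign for Aldoa (-0.16), Eno2 (-0.19), Gapdh (-0.46), Gpi1 (-0.25), Hk2 (-0.29), Ldhb (-0.41), Pdha1 (-0.13), Pdk3 (0.21), Pgam2 (-0.67), Pygb (-0.42), Slc2a4 (-0.20) and Tpi1 (-0.41). With the Xist covariate and with controls 1 and 2 left out it turned for Eno2 (-0.34 and -0.37) and Hk1 (-0.022 and -0.016). Leaving out single libraries gave -0.091 to 0.241 for Eno2, -0.055 to 0.379 for Pfkfb2, -0.099 to 0.262 for Slc16a1 and -0.028 to 0.189 for Pfkm minus the muscle marker mean. With the median of the markers that difference was -0.307 for Pfkm, -0.168 for Eno3, -0.032 for Pygm and -0.044 for Slc2a4. The cause of these changes was not tested. No normalization moved the median of all genes by more than 0.1. Absolute depth was not known, so values of a few FPKM carry counting error of unknown size.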

Other observations

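Summed over the isoforms of a step, transcripts of some steps were higher in all mutants than in all controls, and those of others lower. The 3 phosphofructokinase genes summed to 73.7 ± 19.1 FPKM in controls and 150.2 ± 36.2 FPKM in mutants (mean ± SD, n = 3), and the 2 aldolase genes to 837 ± 213 and 1743 ± 422 FPKM. The 3 glycogen phosphorylases summed to 54.6 ± 9.30 and 168 ± 44.4 FPKM and the 4 pyruvate dehydrogenase kinases to 72.6 ± 4.36 and 227 ± 103 FPKM. In the other direction, the 2 lactate dehydrogenase genes summed to 1417 ± 127 FPKM in controls and 947 ± 83.8 FPKM in mutants, and the 2 monocarboxylate transporters to 56.4 ± 15.98 and 27.7 ± 6.22 FPKM. The 2 hexokinase genes summed to 18.4 ± 1.54 and 22.3 ± 1.46 FPKM, with Hk1 below the 90th percentile of the silent genes in 2 libraries and Hk2 in 1. These 7 sums are set together because their groups did not overlap, so that their number is not a result. The share of 19.2% without overlap holds for single genes tested, and none was computed for sums. Each of the 7 sums had an exact two-sided permutation p of 0.1, the smallest that 3 against 3 allow, not adjusted for the number of sums. The sums include genes that passed singly (Pfkm, Pygm, Pdk2, Pdk4 and Slc16a3), whereas Hk1 and Hk2 each overlapped between the groups. The glucose transporters (37.9 ± 5.97 and 43.6 ± 11.5 FPKM) overlapped, as did the enolases with Eno1b included (597 ± 112 and 710.5 ± 174 FPKM). The enolases without Eno1b (465 ± 96.3 and 681 ± 169 FPKM) and the phosphoglycerate mutases (625 ± 153 and 840 ± 241 FPKM) overlapped too. Endothelial markers were higher in every mutant than in every control in 10 of 10 genes, where 9.77% of all genes tested were. They summed to 102 to 167 FPKM in controls and 283 to 328 FPKM in mutants. Of the 10, 3 rose (7 at an unadjusted p below 0.05, limma), against 0.775% and 7.94% of all genes. Vwf was below the 90th percentile of the silent genes in every library, and Tek in 4. Kdr was separated only slightly, at 10.6 FPKM in control 2 and 10.7 in mutant 2. None of the 8 bone, 6 erythroid and 8 macrophage markers tested passed (limma, with 1 of each list at an unadjusted p below 0.05). Their part in the values of the glycolysis genes was not tested.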
